A study of Mus musculus with 8 samples.

Results

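Trem2, its adaptor Tyrobp, and genes of the phagocytic and lysosomal programme that is studied together with them were followed across cell classes and surgeries in mouse forebrain nuclei. The 10 genes, taken by their symbols out of 54232 genes in the files, were Trem2, Tyrobp, Cd9, Cd63, Ctsb, Ctsd, Ctss, Ctsz, Lyz2 and Axl. TREM2 is a surface receptor for lipids and lipoproteins on microglia and other myeloid cells, and it signals through TYROBP (DAP12), whose cytoplasmic motif recruits the kinase SYK. In mouse models of amyloid and of demyelination, microglia that gather at the lesion raise a Trem2-dependent programme in which tetraspanins, cathepsins, lysozyme and the receptor Axl take part. Cathepsins are proteases of the lysosome, the compartment in which phagocytes break down debris after injury.

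Single-nucleus RNA sequencing (10x Genomics 3' chemistry) was run on perilesional forebrain of male Swiss Webster mice aged 10 weeks, in 4 groups of 2 libraries that the labels call biological replicates. The groups were control mice, mice with BCAS surgery, mice with TBI surgery, and mice with both (BCAS+TBI). BCAS stands in the labels as an abbreviation that the series title ties to cerebral hypoperfusion, TBI is traumatic brain injury, and neither the time after surgery, the treatment of the control mice nor any pooling of animals is given in the labels. The design asks what each surgery did and, as the title puts it, whether hypoperfusion altered the response to injury.

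The files held raw counts of unique molecular identifiers (UMIs), 28118725 to 56135192 per library. The libraries split by total UMIs into a pair of sets, each with 1 library of every group. Set 1 (control 1, BCAS 1, TBI 1 and BCAS+TBI 2) had 28118725 to 33363564 UMIs, and set 2 (control 2, BCAS 2, TBI 2 and BCAS+TBI 1) had 42651388 to 56135192. Mitochondrial UMIs made up 1.20% to 2.77% in set 1 and 0.511% to 1.04% in set 2, and ribosomal protein genes 0.518% to 0.866% and 0.242% to 0.294%. The sets were read from these values and are not groups of the study, and the labels name no batch. The counts of members called and several estimates below are therefore given with and without the set as a term of the model, called the set block. An estimate for a surgery that is given once is without the block unless the block is named, and may differ with it. Contrasts between the sets come from the model with the block.

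After filtering, 45560 nuclei remained, and 694 of them (1.52%) formed 1 microglia-like cluster, with 65 to 125 nuclei and 70077 to 175819 UMIs per library and a median of 1136 UMIs per nucleus. The cluster was named by 11 microglial marker genes, so their level in it describes the name and is no independent check of it. All 11 were detected, and their summed level was at least 6979 CPM in every library (CPM are UMIs of a gene relative to all UMIs of the same nuclei). In any library of the other named classes that sum was at most 540.3 CPM. No member was a marker or was used in clustering. Markers of other immune cells were also present in the cluster. Border macrophage markers (Mrc1, F13a1, Cd163, Pf4, Lyve1, Ms4a7 and Cbr2, 7 of 7 detected) summed to 76.6 to 1484 CPM per library, and monocyte and neutrophil markers (5 of 6 detected, Ly6c2 at 0) to 9.60 to 214 CPM. Of the 53098 distinct barcode sequences, 289 occurred in more than 1 library.

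Trem2 and Tyrobp, the receptor and its adaptor, were highest in microglia-like nuclei. Trem2 ran from 171 to 537 CPM across the 8 libraries in microglia-like nuclei (median 336 CPM), and 29.0% of those nuclei held a Trem2 UMI. In the next class, endothelial-like nuclei, the median was 6.61 CPM (0 to 33.9), and the ranges did not overlap. Tyrobp ran from 71.8 to 264 CPM in microglia-like nuclei (median 141 CPM), apart from fibroblast-like nuclei at a median of 3.18 CPM. Free RNA in droplets gives a low signal in all cells, and microglial marker genes served as its gauge. Pooled over libraries, excitatory neuron-like nuclei held Trem2 at 0.413% and Tyrobp at 0.457% of their microglial level, where the 11 microglial markers had a median of 0.364% (0.125% to 2.23%). In endothelial-like nuclei the shares were 2.56% and 3.40%, against a marker median of 1.34% and a highest marker share of 3.51%. In both classes the values were thus within the range that the microglial markers had there, and above the marker median. In endothelial-like nuclei the top of that range was Inpp5d. Free RNA itself was not measured, and whether these values were background was not tested.

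Ctss and Lyz2 also had their highest medians in microglia-like nuclei. Ctss, a cysteine protease that microglia and macrophages use in antigen processing, ran from 574 to 2133 CPM (median 1175 CPM) in microglia-like nuclei, of which 65.1% held a UMI. Its next class, endothelial-like nuclei, had a median of 13.4 CPM. Lyz2, the lysozyme of macrophages and monocytes, ran from 35.9 to 385 CPM (median 183 CPM), yet 7.49% of microglia-like nuclei held any of its UMIs. Its lowest microglial library overlapped fibroblast-like nuclei, which ran from 0 to 44.1 CPM. Pooled over libraries, Lyz2 in fibroblast-like and endothelial-like nuclei was at 6.64% and 5.78% of its microglial level, above the highest marker shares there (5.62% and 3.51%), from 18 and 17 UMIs. The near-identical paralog Lyz1 had 0 UMIs in microglia-like nuclei, so Lyz2 reads assigned to Lyz1 were not detected there, although reads that map equally to both copies may not have been counted.

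Ctsd and Ctsb, an aspartic and a cysteine protease of the lysosome, were highest in microglia-like nuclei and had UMIs in every class. Ctsd ran from 466 to 1998 CPM in microglia-like nuclei (median 1114 CPM), above the 69.0 to 164 CPM of astrocyte-like nuclei, the next class, whose median was lower by 8.85-fold. Ctsb ran from 287 to 792 CPM in microglia-like nuclei and from 91.1 to 191 CPM in astrocyte-like nuclei, a 2.97-fold difference of medians. Excitatory neuron-like nuclei held Ctsb at 14.4% and Ctsd at 2.40% of the microglial level, both above the highest share of any microglial marker there (2.23%). Ctsb was above that gauge in every other named class, with the narrowest margin in choroid plexus-like nuclei (17.5% against 15.6%). Ctsd was below it in choroid plexus-like (8.72% against 15.6%), ependymal-like (7.09% against 9.14%) and striatal projection neuron-like nuclei (2.29% against 2.61%). The highest shares there were those of Cx3cr1, Cx3cr1 and P2ry12, beside marker medians of 0.645%, 1.05% and 0.427% in the same order. Whether the Ctsd UMIs in these classes were background was not tested. Ctsz, a carboxypeptidase-type cathepsin, had its highest median in microglia-like nuclei (169.7 CPM, 71.8 to 531), and overlapped the mural-like range of 27.6 to 110 CPM.

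The tetraspanins Cd9 and Cd63, membrane organisers of the cell surface and of late endosomes and lysosomes, were not microglial markers here. Cd9 had overlapping ranges in oligodendrocyte-like (139.7 to 449 CPM), microglia-like (102 to 556 CPM) and oligodendrocyte precursor-like nuclei (94.6 to 405 CPM). Cd63 had its highest median in astrocyte-like nuclei (369.7 CPM, 165 to 658), overlapping ependymal-like and mural-like nuclei, while the microglial median was 114 CPM. Axl, a receptor tyrosine kinase of the TAM family that binds Gas6, had its highest medians in mural-like, astrocyte-like and fibroblast-like nuclei. It ran from 82.9 to 266 CPM in mural-like nuclei, apart from the 50.3 to 77.0 CPM of astrocyte-like nuclei, and fibroblast-like nuclei had a median of 51.0 CPM. The Axl medians of oligodendrocyte-like and endothelial-like nuclei were 2.4 and 0 CPM. In microglia-like nuclei Axl had 12 UMIs in all, 7 of them in TBI 1, and 4 libraries were at 0, so no change with surgery could be measured there.

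**Figure D1:**
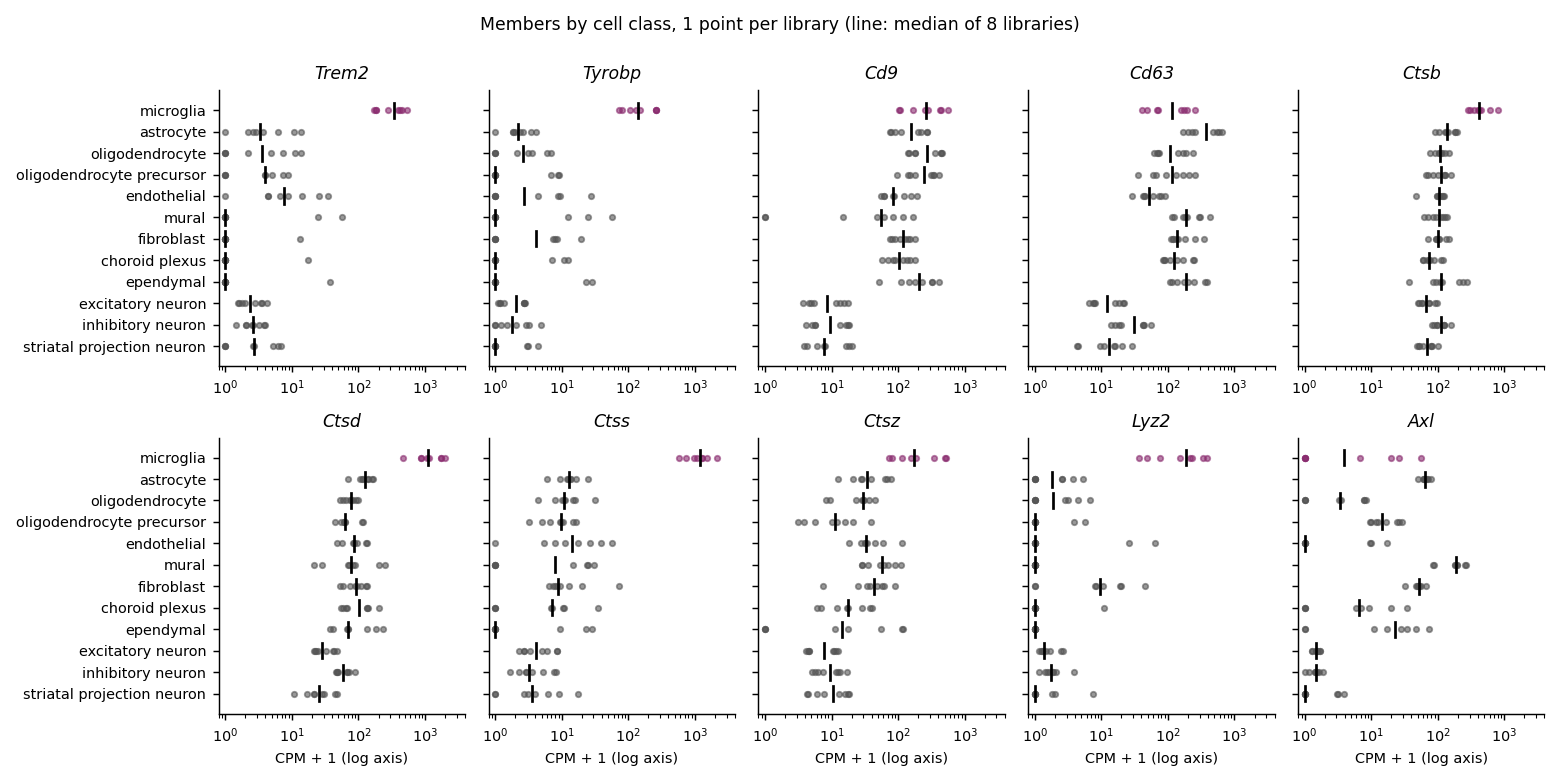
Level of each member (horizontal log axis, CPM + 1) in the 12 named cell classes (vertical axis), with 1 point per library and a line at the median of 8 libraries. Trem2, Tyrobp, Ctss and Lyz2 have their high values in the top row, microglia-like nuclei (medians of 336, 141, 1175 and 183 CPM), Ctsb and Ctsd have UMIs in all classes, Cd63 is highest in astrocyte-like nuclei (median 369.7 CPM) and Axl in mural-like nuclei (median 187 CPM).

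The 12393 nuclei of 8 clusters that the marker rule left unnamed (27.2% of nuclei) held more Trem2 UMIs in number than microglia-like nuclei, 663 against 277 of the 1231 in all kept nuclei. Their level was low: 6.71 CPM pooled over libraries, 2.08% of the microglial level, beside a median of 2.12% for the microglial markers in the same nuclei.

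The genes most like each member over the 12 class means, by Pearson correlation of log2(CPM + 10) among 13400 genes, are given as a description of points that share libraries and depth. Trem2 was nearest to Parvg (r = 0.994), Cd48 and Fcgr1, Tyrobp to Tmem173 (r = 0.989), Cd300a and C1qa, and Ctss to Laptm5 (r = 0.996), Csf1r and Abi3. Ctsd had Osbpl11 (r = 0.962) and Gdi2 among its 3 nearest genes, and Ctsb had Sh2b2 (r = 0.952) and Ctsd (r = 0.946) as its nearest genes. Lyz2 was nearest to Ltb (r = 0.995), Cd9 to Map4k4 (r = 0.957), Cd63 to Idh1 (r = 0.966), Ctsz to Mgat1 (r = 0.976) and Axl to Tead3 (r = 0.956).

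RefSeq promoter sequences of GRCm38.p6 were found for 8 of the 10 members, all but Tyrobp and Ctsb, and each 300-base window (250 bases before the start and 50 after) was searched on both strands for TCACGTGA, the E-box core of lysosomal genes, and GAGGAAGT, a core motif of the myeloid factor PU.1. The stretches of 30 bases below are shown because they hold the matches in a widely expressed and in a microglial cathepsin gene, with the match in capitals. Ctsd lies on the minus strand of chromosome 7 and the stretch at chr7:142387908-142387937, with its match beginning 99 bases before the RefSeq start. Ctss lies on the plus strand of chromosome 3 and the stretch at chr3:95526773-95526802, with GAGGAAGT on the opposite strand and the match spanning the start.
Ctsd: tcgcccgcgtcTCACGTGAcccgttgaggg
Ctss: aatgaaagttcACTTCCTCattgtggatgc
TCACGTGA was present in 0.974% of all 32851 promoter windows and GAGGAAGT in 3.20%. A match describes the letters only, and no match was found in these windows for Trem2, Cd9, Cd63, Ctsz, Lyz2 and Axl.

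In GENCODE's annotation of GRCm38, Trem2 spans chr17:48346401-48354147 and Ctss chr3:95526786-95556403 on the plus strand, and Ctsd chr7:142375911-142388038 and Lyz2 chr10:117277331-117282321 on the minus strand. Ctsd overlaps the same-strand gene Gm49369 and Ctss the pseudogene Hmgb1-ps5, so their counts may lack reads that could not be assigned to 1 gene. Cd9, Ctsb and Ctsz overlap genes on the opposite strand.

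Across the surgeries, Trem2 in microglia-like nuclei had the most regular values. It stood at 396 CPM in control 1 and 184 in control 2, 171 in BCAS 1 and 182 in BCAS 2, 451 in TBI 1 and 275 in TBI 2, and 422 in BCAS+TBI 1 and 537 in BCAS+TBI 2. The group means were 289.9 ± 150 (control), 177 ± 7.61 (BCAS), 363 ± 125 (TBI) and 479.7 ± 81.3 CPM (BCAS+TBI; SD, n = 2 each). The 4 libraries with TBI surgery ran from 275 to 537 CPM and the 4 without from 171 to 396 CPM, so the arms overlapped. Within each set they did not: in set 1 the libraries with TBI had 451 and 537 CPM against 396 and 171, and in set 2 they had 275 and 422 CPM against 184 and 182. Trem2 was the only one of the 9 tested members with TBI libraries above the others in both sets, an arrangement that 2.73% of the 3264 genes tested in these nuclei had.

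**Figure D2:**
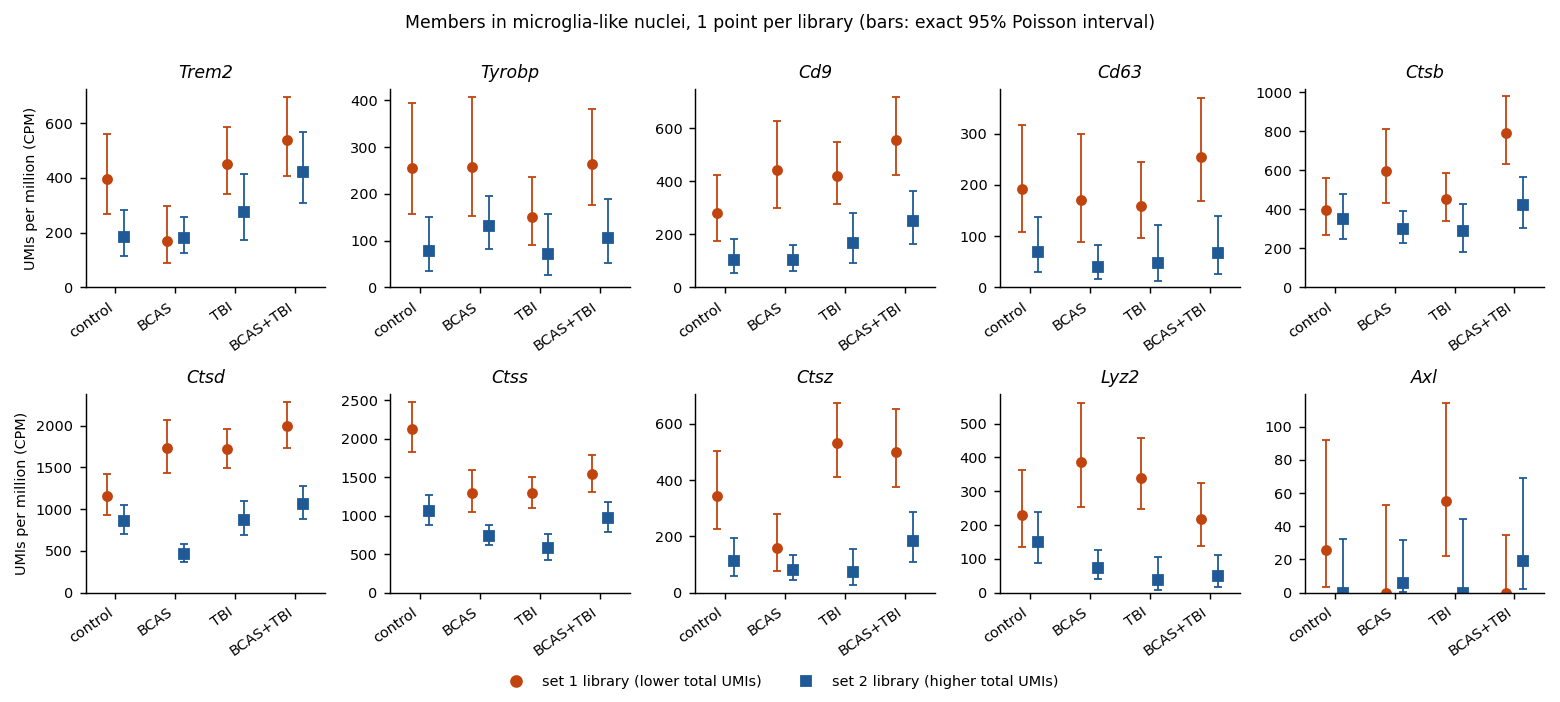
Level of each member in microglia-like nuclei (vertical axis, CPM, starting at 0) in the 4 groups, with 1 point per library, circles for set 1, squares for set 2, and exact 95% Poisson intervals that cover counting error only. Trem2 in TBI and BCAS+TBI lies above the libraries without TBI of the same set, and for most members the circle lies above the square of its group; Axl rests on 12 UMIs.

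The change in Trem2 with TBI did not pass the test. By edgeR's quasi-likelihood test, TBI averaged over BCAS gave a log2 fold change of 0.93 ± 0.30 (SE; adjusted p = 1) and of 0.87 ± 0.22 with the set block (adjusted p = 0.402), adjusted by Benjamini and Hochberg over all 87989 pairs of class and gene. Over the alternatives the log2 fold change was between 0.66 and 1.25, always positive, and the adjusted p between 0.106 and 1. For BCAS averaged over TBI the log2 fold change of Trem2 was -0.12 ± 0.30 (adjusted p = 1). BCAS+TBI against TBI gave 0.42 ± 0.40, and the interaction, which asks whether the TBI difference depends on BCAS, gave 1.09 ± 0.61, neither past the threshold (adjusted p = 1 by edgeR).

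Tyrobp, the adaptor, stood at 256 and 78.8 CPM in control 1 and 2, 257 and 131 in BCAS, 151 and 71.8 in TBI, and 106 and 264 in BCAS+TBI. The groups overlapped, and each library of set 1 was above every library of set 2. Its log2 fold change with TBI was -0.18 ± 0.47 (edgeR, adjusted p = 1).

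Among the cathepsins, Ctsz and Ctsd had positive estimates with TBI and Ctss a negative one, none past the threshold. Ctsz stood at 345 and 114 CPM in control 1 and 2, 157 and 79.6 in BCAS, 531 and 71.8 in TBI, and 182 and 499.5 in BCAS+TBI 1 and 2. The arms overlapped, and the highest libraries were TBI 1 and BCAS+TBI 2, both of set 1. The log2 fold change with TBI was 1.13 ± 0.58 (adjusted p = 1) and 0.88 ± 0.26 with the block (adjusted p = 0.732; edgeR). Leaving out 1 library moved it between 0.06 and 1.60, and between 0.37 and 1.09 with the block. The lowest values, 0.06 and 0.37, were those without TBI 1. Ctsd stood at 1162 and 858 CPM in control 1 and 2, 1727 and 466 in BCAS, 1719 and 874 in TBI, and 1065 and 1998 in BCAS+TBI 1 and 2, so the set separated the libraries and the surgeries overlapped. Its log2 fold change with TBI was 0.48 ± 0.41, and 0.49 ± 0.18 with the block (adjusted p = 1.00; edgeR). Leaving out 1 library moved it between 0.12 (without BCAS 2) and 1.06 (without BCAS 1), and between 0.26 and 0.77 with the block.

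Ctss had its highest value in a control library. It stood at 2133 and 1059 CPM in control 1 and 2, 1299 and 739 in BCAS, 1291 and 574 in TBI, and 969 and 1536 in BCAS+TBI 1 and 2. In set 1 control 1 was above the other 3 libraries, and in set 2 control 2 was above the other 3. The share of all genes with this order was not computed, so it is a description only. Its log2 difference between TBI and control was -0.76 ± 0.50 without the block and -0.78 ± 0.22 with it (adjusted p = 0.580; edgeR). The interaction was 1.12 ± 0.31 with the block (adjusted p = 0.474; edgeR), and all these stayed short of the threshold. Ctsb stood at 396 and 350.1 CPM in control 1 and 2, 599 and 301 in BCAS, 451 and 287 in TBI, and 422 and 792 in BCAS+TBI 1 and 2. Its estimates were 0.28 ± 0.32 for TBI and 0.49 ± 0.32 for BCAS (edgeR, adjusted p = 1 for both). Both BCAS+TBI libraries lay above both control libraries, an order whose share among all genes was likewise not computed, and the other groups overlapped.

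Cd9 in microglia-like nuclei stood at 281 and 105 CPM in control 1 and 2, 442 and 102 in BCAS, 419.8 and 167.5 in TBI, and 249.5 and 556 in BCAS+TBI 1 and 2. Within set 2 the libraries with TBI were above those without, and within set 1 TBI 1 was below BCAS 1. The log2 fold change with TBI was 0.75 ± 0.51, and 0.68 ± 0.23 with the block (adjusted p = 0.952; edgeR). Leaving out 1 library moved it between 0.31 (without BCAS 2) and 1.35 (without BCAS 1), and between 0.52 and 0.89 with the block. Cd63 stood at 192 and 70.0 CPM in control 1 and 2, 171 and 39.8 in BCAS, 158 and 47.9 in TBI, and 67.2 and 254 in BCAS+TBI 1 and 2, with a log2 fold change of 0.36 ± 0.61 for TBI. Cd63 is more abundant in astrocytes, and astrocyte markers in microglia-like nuclei (6 of 6 detected) summed to 539 to 2274 CPM, with the highest values in control 1 (2274 CPM) and BCAS+TBI 2 (2073 CPM). Their part in the Cd63 values was not tested.

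Lyz2 stood at 229.9 and 149 CPM in control 1 and 2, 385 and 73.9 in BCAS, 341 and 35.9 in TBI, and 48.0 and 217 in BCAS+TBI 1 and 2, which overlapped between all groups. Much of it lay in few nuclei. The 53 microglia-like nuclei (7.64%) with 2 or more UMIs of markers of border macrophages, monocytes, neutrophils or lymphocytes carried 99 of the 149 Lyz2 UMIs (66.4%). Lyz2 was at 1217 CPM in them (95% Poisson interval 989 to 1482) and at 64.3 CPM (47.8 to 84.8) in the other 641 nuclei. In those 641 nuclei, Lyz2 had 0 UMIs in control 1 and in control 2, where 3 UMIs would be 39.8 and 28.8 CPM, and 17, 6, 18, 2, 3 and 4 UMIs in BCAS 1 and 2, TBI 1 and 2, and BCAS+TBI 1 and 2. Only 24 of the 641 nuclei held a Lyz2 UMI. They had a median of 5 UMIs of microglial markers, against 10 in the rest, and 5 of the 24 held 1 UMI of the other immune markers, against 23 of the 641. Without the 53 nuclei the log2 fold change of Lyz2 with TBI was 2.17 in place of -0.20, neither past the threshold (edgeR, adjusted p = 1), and with controls at 0 its size depends on the prior count of the model.

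Beside Lyz2, the intervals of Cd9, Trem2, Ctsd, Ctss and Ctsb did not overlap between those 53 nuclei and the rest. The share of all genes with such intervals was not computed. Control 1, BCAS 1, TBI 1 and BCAS+TBI 2 (set 1) held 3, 9, 14 and 10 of the 53 nuclei. Control 2, BCAS 2, TBI 2 and BCAS+TBI 1 (set 2) held 5, 9, 2 and 1. The part of the set in these differences was not tested. Cd9 was at 111 CPM (50.6 to 210) in the 53 nuclei and at 291 CPM (254 to 331) in the rest. Trem2 was at 135 CPM (67.5 to 242) in the 53 nuclei and at 342 CPM (302 to 386) in the rest, Ctsd at 332 (219 to 483) and 1258 CPM (1181 to 1340), and Ctss at 602 (446 to 796) and 1203 CPM (1127 to 1283). Ctsb was the other way round, at 861 (671 to 1087) and 392 CPM (349.6 to 439). The intervals overlapped for Tyrobp (221 and 149 CPM), Cd63 (197 and 108 CPM), Ctsz (147.5 and 255 CPM) and Axl (49.2 and 10.3 CPM), and all 4 Axl UMIs of the 53 nuclei came from TBI 1. The intervals are exact 95% Poisson intervals that cover counting error only, over nuclei pooled from 8 libraries, with median depths of 1189 and 1123 UMIs per nucleus. The rule that split the nuclei used none of these genes. The 53 nuclei had a median of 5 UMIs of microglial markers. In the whole cluster Mrc1 had 229 UMIs in 34 nuclei and F13a1 220 UMIs in 30. Whether the 53 nuclei were microglia or other immune cells was not tested. Without the 53 nuclei the log2 fold change of Trem2 with TBI was 0.90, and 0.82 with the block.

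**Figure D3:**
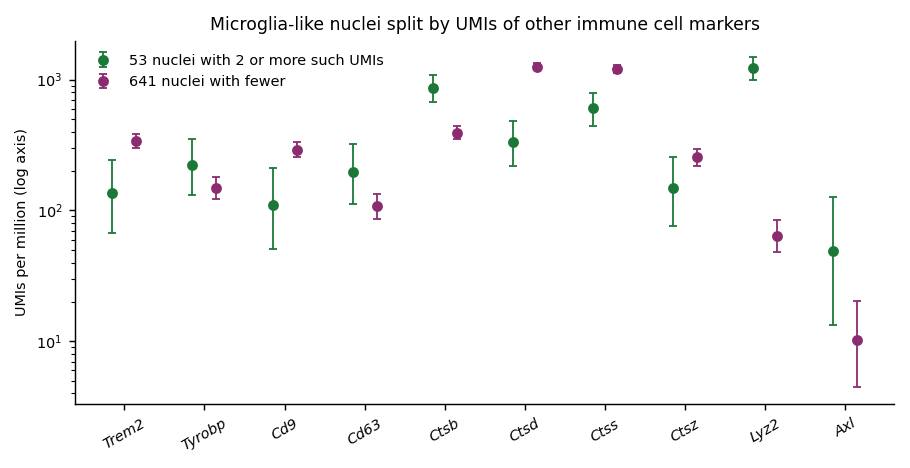
Level of each member (vertical log axis, CPM) in the 53 microglia-like nuclei with 2 or more UMIs of other immune cell markers and in the 641 with fewer, pooled over 8 libraries with exact 95% Poisson intervals. Lyz2 and Ctsb lie higher in the 53 nuclei (1217 and 861 CPM), and Trem2, Ctsd and Ctss lie lower (135, 332 and 602 CPM).

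Counted over all classes, 0 of 60 tested pairs of member and class passed an adjusted p of 0.05 in any of the 7 contrasts by edgeR (TBI and BCAS each averaged over the other, the interaction, each surgery group against control, and BCAS+TBI against TBI), and 0 by DESeq2. Without the block, 0% of all 87989 class-gene pairs passed in each contrast. With the block 0 of 60 passed as well, beside 0.00909% of all pairs for TBI and 0.00227% for BCAS averaged over the other, 0.0114% for the interaction, 0.0136%, 0.0352% and 0.0386% for TBI, BCAS and BCAS+TBI against control, and 0.00114% for BCAS+TBI against TBI. At an unadjusted p of 0.05, 1 of 60 pairs without the block (1.02% of all pairs) and 5 of 60 with it (4.51%) passed for TBI averaged over BCAS. For BCAS averaged over TBI these were 0 of 60 (1.04%) and 2 of 60 (3.92%), and for the interaction 0 of 60 (1.05%) and 4 of 60 (4.88%). For TBI, BCAS and BCAS+TBI against control and BCAS+TBI against TBI, the unadjusted counts were 1, 0, 0 and 0 of 60 without the block (0.972%, 1.18%, 1.04% and 0.879% of all pairs), and 3, 1, 6 and 5 with it (4.02%, 4.55%, 3.93% and 4.03%). These contrasts share libraries.

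In microglia-like nuclei alone, 1 of 9 members (Trem2) had an unadjusted p under 0.05 for TBI averaged over BCAS, beside 2.08% of the 3264 genes tested there. With the block 4 of 9 did (Trem2, Cd9, Ctsd and Ctsz, all with higher values after TBI), beside 5.06%. The median log2 fold change of the 9 members was 0.36, and 0.22 with the block, against 0.02 and 0.01 for all 3264 genes, and 6 of 9 were positive under either, against 52.2% and 52.0% of all genes. At the same unadjusted threshold, 0 of 9 members without the block and 1 of 9 with it (Ctsb) passed for BCAS averaged over TBI (2.08% and 4.53% of genes), and 0 of 9 and 3 of 9 (Trem2, Ctss and Ctsz) for the interaction (2.76% and 6.28%). For TBI, BCAS and BCAS+TBI against control and BCAS+TBI against TBI, 0 of 9 passed without the block (2.33%, 2.88%, 1.56% and 1.99%), and 1, 1, 4 and 2 of 9 with it (5.3%, 6.89%, 4.38% and 4.5%). Those were Ctss in the first and in the next contrast, then Trem2, Cd9, Ctsb and Ctsd for BCAS+TBI against control, and Ctsb and Ctss for BCAS+TBI against TBI. Adjusted, 0 of 9 passed in each, beside 0.0306% of these genes for the interaction and for BCAS+TBI against control with the block, and 0% for the others. For BCAS averaged over TBI the members' median was 0.07, against 0.01 for all genes. The members were chosen with earlier results of these data known, so these counts and medians are a description only.

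Outside microglia the members showed no change with surgery that passed the test. Axl in mural-like nuclei stood at 174 ± 129 (control), 187 ± 9.51 (BCAS), 228 ± 44.1 (TBI) and 133 ± 63.6 CPM (BCAS+TBI; SD, n = 2), with 3 to 17 UMIs per library, and its log2 fold change with TBI was 0.02 ± 0.46. Axl in astrocyte-like nuclei was the steadiest, from 50.3 to 77.0 CPM, with a log2 fold change of -0.06 ± 0.19 for TBI and -0.17 ± 0.19 for BCAS. Cd63 in astrocyte-like nuclei stood at 369.7 ± 159, 359.5 ± 275, 395 ± 278 and 444 ± 303 CPM in the same order of groups, with a log2 fold change of 0.23 ± 0.50 for TBI. All adjusted p-values were 1 by edgeR.

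**Figure D4:**
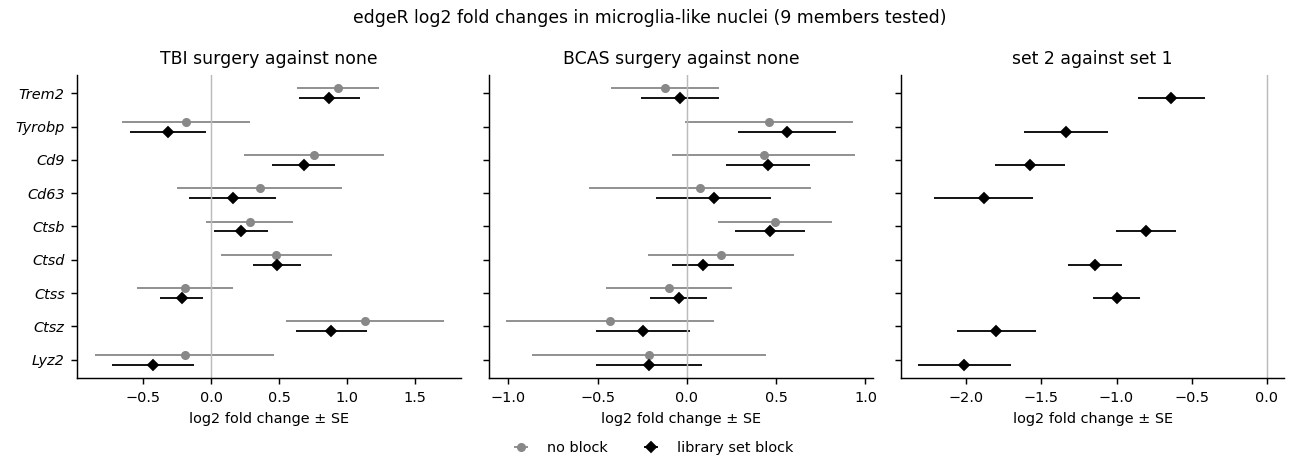
Log2 fold changes with standard errors (horizontal axis) of the 9 members tested in microglia-like nuclei (vertical axis) for TBI surgery, BCAS surgery and set 2 against set 1, without the set block (grey circles) and with it (black diamonds). Trem2 and Ctsz have the largest estimates for TBI (0.93 and 1.13 without the block), and all 9 estimates for the sets are negative, from -0.64 to -2.01.

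The members differed between the library sets in microglia and in other classes. In microglia-like nuclei 9 of 9 tested members were lower in set 2 than in set 1 by edgeR (15.3% of all genes tested there passed in either direction, 175 of 499 of them higher in set 2). Lyz2 fell by 2.01, Cd63 by 1.88, Ctsz by 1.80, Cd9 by 1.58, Tyrobp by 1.34, Ctsd by 1.14, Ctss by 1.00, Ctsb by 0.80 and Trem2 by 0.64 on the log2 scale, a median of -1.34 where all genes had 0.02. In 6 of 9 the libraries of set 1 lay wholly above those of set 2, as in 7.14% of all genes. Ribosomal protein genes made up 0.967% to 1.33% of the UMIs of microglia-like nuclei in set 1 and 0.473% to 0.525% in set 2, and mitochondrial UMIs 1.63% to 2.46% and 1.09% to 1.57%. Their part in the difference was not tested.

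Over all classes, 48 of 60 member pairs were called lower in set 2 and 0 higher, beside 33.9% of all class-gene pairs called, of which 13389 of 29828 were higher in set 2. Unadjusted, 51 of 60 passed, beside 43% of all pairs. Cd63 was called lower in 11 of 11 classes, by 0.97 to 1.88 on the log2 scale, and Ctsz in 7 of 7. Cd9 was called in 8 of 10 and Ctsd in 7 of 10, with negative estimates in 10 of 10 for both. Ctsb was called in 6 of 10 and negative in 8. Axl was the exception: in astrocyte-like nuclei its log2 difference was 0.00 ± 0.16 (adjusted p = 0.994 by edgeR) and in mural-like nuclei 0.17 ± 0.43 (adjusted p = 0.809). The set difference in microglia depended on how they were chosen. When they were taken nucleus by nucleus instead of by cluster, at least 3 UMIs from 2 or more markers, 3 of 9 members passed. These were Cd9, Cd63 and Ctsz, with log2 differences of -0.98, -1.14 and -1.38. The others had -0.60 (Ctsd), -0.39 (Ctss), -0.32 (Tyrobp), -0.18 (Trem2), -0.15 (Ctsb) and 0.05 (Lyz2). The share of all genes that passed with this choice was not computed.

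Other genes of the pathway, counted in lists of genes that act with the members, likewise gave 0 calls in microglia-like nuclei for either surgery by edgeR, with or without the block. Of 20 genes of TREM2 signalling 16 were tested, and 8 of the 16 had higher values with TBI (median log2 fold change -0.01). The 3 with the smallest p were Syk (-0.50 ± 0.24), the kinase recruited by TYROBP, the inhibitory receptor Cd33 (-0.33 ± 0.23) and the sheddase Adam17 (0.33 ± 0.26), all with an adjusted p of 1. Of 27 lysosomal genes 19 were tested, 11 were higher with TBI (median 0.13), and among the 3 with the smallest p were progranulin, Grn (0.58 ± 0.35), and the phagocyte lysosomal glycoprotein Cd68 (0.72 ± 0.63). Grn stood at 345 and 280.1 CPM in control 1 and 2, 314 and 114 in BCAS, 404 and 215 in TBI, and 326 and 490 in BCAS+TBI 1 and 2, overlapping between arms.

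Of 11 further cathepsins and their inhibitors 6 were tested, 3 were higher with TBI (median 0.05), and Lgmn (0.22 ± 0.27), Cst3 (-0.45 ± 0.60) and Ctsl (0.36 ± 0.66) had the smallest p. Cst3, the secreted inhibitor cystatin C, ran from 2400 to 4495 CPM in set 1 and from 778 to 1200 CPM in set 2. Of 5 other tetraspanins 3 were tested and 1 was higher (Cd81, 0.32 ± 0.41), beside Cd53 (-0.29 ± 0.29) and Cd37 (-0.27 ± 0.29). Of the 4 TAM receptors and ligands 3 were tested and 0 were higher: Mertk, which microglia express at 927 to 1747 CPM, had -0.15 ± 0.23, Pros1 -0.04 ± 0.23 and Gas6 -0.06 ± 0.54. Of 11 other genes of the disease-associated programme (Itgax, Lpl, Spp1 and Clec7a among them), only B2m (0.70 ± 0.37) and Fth1 (-0.13 ± 0.63) had enough UMIs to be tested at 65 to 125 nuclei per library.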

How the data were processed

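Single-nucleus RNA of 8 libraries was deposited as raw UMI counts per gene and barcode, and per the file headers Cell Ranger 7.0.0 wrote them. The submitters' processing notes name GRCm38, mm10 and Seurat. The annotation release, the calling of nuclei and the use of intronic reads are not given in the sources used here, and the latter sets how much unspliced RNA a count holds. The 10 genes, the marker genes, the pathway lists and the tests were chosen with earlier results of these data known.

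Of 53390 barcodes, 48468 had at least 500 UMIs, 300 genes and no more than 5% mitochondrial UMIs. The 6% with the highest Scrublet score (expected rate 0.06) were removed in each library, since its automatic threshold marked 0% to 12.8%. Clustering in scanpy 1.11.5 used 3000 variable genes without the members, 30 components, 15 neighbours and Leiden at resolution 1 (39 clusters), with no integration. A class name needed a mean log2 fold of at least 1.5 over its markers (pseudocount 10 CPM) and 3 markers at least 2-fold higher and in 10% of nuclei, and neurons a marker ratio of 5. Clusters that passed for several classes, or whose median doublet score exceeded 0.1, were not named. Clusters led by haemoglobin genes were left unnamed only where no class passed, a choice made after seeing the data. CPM are UMIs of a gene relative to all UMIs of its class and library.

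Counts were summed per class and library, since nuclei are not replicates, for 11 classes (20 or more nuclei in each library). edgeR 4.0.16 (R 4.3.3; TMM, filterByExpr at min.count 10, two-sided quasi-likelihood test) fitted all 8 libraries per class, and p-values were adjusted over all class-gene pairs of a contrast at 0.05. P-values measure the spread between the deposited libraries. The block for the library set (the total UMIs split at their largest gap) was a listed alternative, and the contrast between the sets was added after seeing the data. DESeq2 1.42.0, other filters, clusterings, a gate per nucleus and leaving out each library were alternatives. The procedure was tested on simulated counts. Pathway genes are named for a list by the 3 smallest p for TBI, and some genes that the rules pick are not reported here. Motifs and positions come from RefSeq and GENCODE tables of GRCm38, in which 99.72% of the files' gene IDs were found. Each count's precision in 1 library is that of an exact 95% Poisson interval, and shares at 0 UMIs allow up to 3 UMIs, both for counting error only.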

Additional observations from a re-analysis of the deposited data

How the results depend on the processing

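Counts of members called for a surgery stayed at 0 under all settings tried, with and without the library set block: DESeq2, RLE normalization, p-values adjusted per class, minimum counts of 30 or none, at least 1000 UMIs, doublets kept, high-UMI nuclei removed, resolutions 0.5 and 2, members among the variable genes, a gate per nucleus, removal of nuclei with other immune markers, and leaving out each library. The setting with only the groups compared was run for the 4 pairwise contrasts, and the averaged contrasts and the interaction use all groups. In the gate per nucleus with the set block, the microglia members called lower in set 2 numbered 3 in place of 9, and the cause was not tested. Elsewhere that count was 7 to 9, and that over all classes was 33 (DESeq2) to 48. The sign for TBI in microglia-like nuclei changed in 16 values of 5 members, none past the threshold, and the cause was not tested. Lyz2 became 2.17, and 2.11 with the block, without nuclei with other immune markers. Leaving out 1 library moved Lyz2 between -1.43 and 0.49 (0.49 without BCAS 1, 0.17 without TBI 2, 0.15 without BCAS+TBI 1) and Ctss between -0.55 and 0.12 (0.12 without control 1, 0.012 without BCAS 1, 0.027 without TBI 2). It moved Tyrobp between -0.63 and 0.33 (0.33 without control 1, 0.032 without BCAS 1, 0.071 without BCAS+TBI 1). Cd63 moved between -0.32 and 0.91 (-0.12 without BCAS 2, -0.23 without TBI 1, -0.32 without BCAS+TBI 2, and -0.000148 with the block without control 1), and Ctsb between -0.026 (without BCAS+TBI 2) and 0.52. Trem2, Cd9, Ctsd and Ctsz kept a positive sign throughout. Replicate 1 was in set 1 for control, BCAS and TBI and in set 2 for BCAS+TBI. Deviations of same-numbered libraries correlated from -0.43 to 0.35 over 6 pairs of groups in microglia-like nuclei, over 0.1 in 3 of 6. Since the numbers largely follow the sets, these correlations cannot show whether replicates were paired apart from the set. With the replicate block the count of members called was 0 in all 7 contrasts, and Trem2 had 0.92. With 100 to 1005 UMIs in 8 libraries for the members other than Axl, depth limits single-library values.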

Other observations

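A cluster of 55 nuclei with markers of both microglia and astrocytes was left unnamed because its median doublet score, 0.106, was over the limit of 0.1, and it entered no test. Its median depth was 3259 UMIs per nucleus, against 1136 in microglia-like nuclei. In it Trem2 was at 156 CPM (95% Poisson interval 107 to 219), Ctss at 537 CPM (443 to 646) and Ctsd at 552 CPM (456 to 661), lower than in microglia-like nuclei without other immune markers (342, 1203 and 1258 CPM). Cd63, which was highest in astrocyte-like nuclei, was at 231 CPM (171 to 305) in it, and Axl, another gene with a higher astrocytic level, at 47.1 CPM (22.6 to 86.7). Lyz2 was at 118 CPM (76.3 to 174).

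Of the 60 tested pairs of member and class, 9 were in microglia-like nuclei. Among the others, libraries with TBI lay on one side of those without, within both library sets, in 3. By class outside microglia, 1.93% to 3.92% of all tested genes were higher in this way and 2.57% to 3.46% lower. Cd63 in choroid plexus-like nuclei was higher, an arrangement that 3.92% of genes tested there had. Tyrobp in excitatory neuron-like nuclei was lower (2.57%), at a share of its microglial level within the range of the microglial markers there. Ctsd in oligodendrocyte precursor-like nuclei was lower (2.67%). For Ctsd the log2 fold change was -0.64 ± 0.30, and -0.62 ± 0.23 with the block (edgeR, adjusted p = 1 for both). These 3 were named after their values were seen, out of both directions and all tested pairs, so they are a description only.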
